A study of Homo sapiens with 16 samples.

Results

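The PI3K, AKT and mTOR genes described here are IRS1, IRS2, PIK3CA, PIK3R1, AKT1, AKT2, MTOR and RICTOR, taken by name. Every base called in an m6A-eCLIP library that lay inside the span of 1 of these genes on hg38, on the strand from which the gene is read, was counted as a member base. All 8 genes held such bases, 714 of the 452349 bases called in any of 8 libraries. The libraries came from U87 MG, an established human glioma line, in 3 states. U87-R STM2457 (n = 2) was U87-R exposed to 50 µM STM2457, an inhibitor of the methyltransferase METTL3, for 96 h. U87-R (n = 3), the temozolomide-resistant derivative of the line, received the DMSO control. Both U87-R groups were grown with 50 µM temozolomide, an alkylating drug, in the medium. U87 (n = 3) was the parental line, with the DMSO control and no temozolomide. All 3 groups shared the serum-containing medium. The labels describe 1 resistant derivative, so in U87-R the derivative and its drug-containing medium cannot be told apart.

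In this pathway, activated insulin and growth factor receptors phosphorylate the adaptor proteins IRS1 and IRS2. The adaptors recruit phosphoinositide 3-kinase (PI3K), in which a regulatory subunit such as the product of PIK3R1 holds a catalytic subunit such as the product of PIK3CA. The lipid that PI3K makes brings the kinases AKT1 and AKT2 to the membrane, and AKT signals on to the kinase mTOR, which promotes protein synthesis and growth; mTOR in its complex with RICTOR in turn phosphorylates AKT. The pathway is active in many gliomas. N6-methyladenosine (m6A) is written on messenger RNA mainly by METTL3, usually at an adenosine followed by cytosine, and often in long exons and around the stop codon. Antibodies to m6A also bind a related mark, m6Am, which another enzyme places next to the cap at the start of messenger RNA, and the lists of called bases do not separate the marks.

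Every library lists the bases it called, each with a score, and they held 105900 to 110875 bases in U87-R STM2457, 149477 to 192697 in U87-R and 150135 to 182556 in U87. Read counts and coverage are not in the lists, so the depth behind a score is unknown and it has no counting error here. How a score was computed is not stated in the sources used, and a lower score cannot be told apart from less RNA of that gene. Of 8 markers of a mesenchymal glioma line, 8, 8 and 7 had a called base in every library of U87-R STM2457, U87-R and U87, and their summed scores ranged from 3850 to 3870, from 9422 to 10589 and from 8685 to 9683. No immune, liver or red cell marker had a called base. Of 4 epithelial markers 1 was called, in every U87-R STM2457 library, with summed scores of 1.68 to 11.8 there, 0 to 0.712 in U87-R and 0 to 3.82 in U87. Of 3 neuron markers 2, 2 and 1 were called in some library of U87-R STM2457, U87-R and U87, with sums of 0 to 15.2, 4.56 to 7.04 and 0 to 1.82. The part of these markers in the results was not tested. The labels do not say whether replicates were separate cultures, so the p-values measure a spread between libraries that may be technical. On the third principal component of the gene sums, which held 11.5% of the variance, replicate 2 of U87-R (89.5) and of U87 (45.9) stood apart from the other 6 libraries (-43.6 to -6.37). Calls of the genes that changed without 1 of them are given with both values.

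The 8 genes together held 177 and 188 called bases in U87-R STM2457, against 345, 284 and 333 in U87-R and 337, 336 and 350.0 in U87. The treated libraries had the fewest of the 8, and U87-R and U87 overlapped. Of the 714 member bases, 294 (41.2%, against 48.2% of all called bases) were called in 1 library, 73 were called in all 8, and 45.9% lay directly beside another called base. By gene, IRS1 held 202 bases, IRS2 177, AKT1 83, PIK3R1 74, AKT2 55, MTOR 49, RICTOR 41 and PIK3CA 33. The bases were gathered in a few stretches. With a new stretch begun wherever 1000 nt separated neighbouring bases, the 8 genes had between 2 and 6 stretches each. Exons, introns and untranslated regions were not used here, so each stretch is placed by its distance from annotated starts and from the 3′ end of the gene span.

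**Figure D1:**
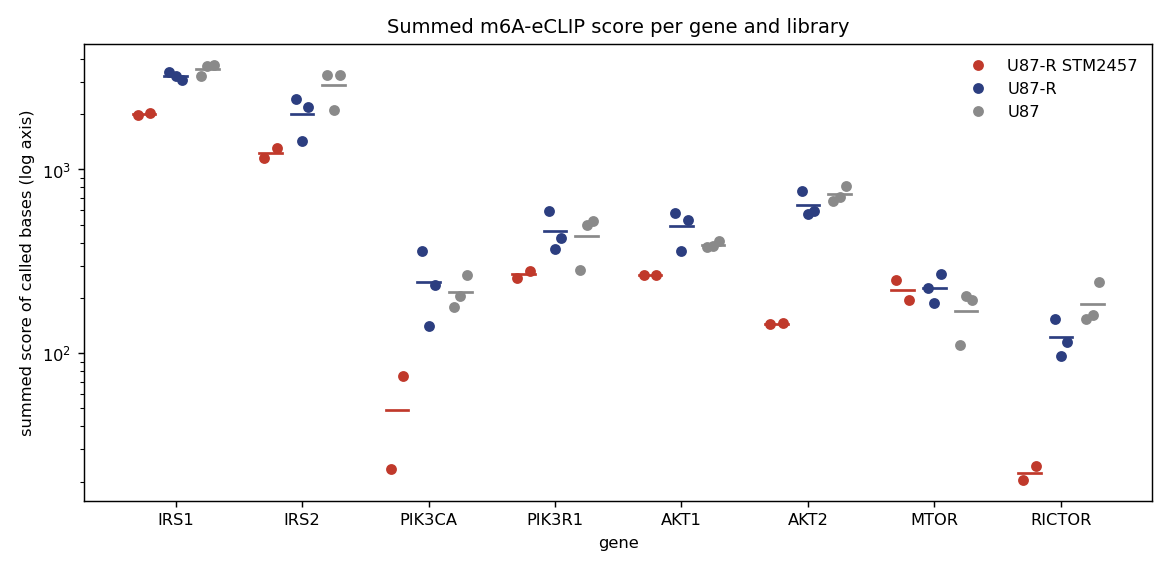
Summed score of the called bases of each gene (log axis) in every library of U87-R STM2457 (red, n = 2), U87-R (blue, n = 3) and U87 (grey, n = 3); points are libraries and bars are group means. The treated libraries lie below all untreated U87-R libraries in 7 of the 8 genes, and MTOR is the exception; sums are not per length, so genes are to be read each on its own.

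The comparison of U87-R STM2457 with U87-R asks which methylation of the resistant line depends on METTL3. Summed per gene, the scores of PIK3CA, RICTOR, AKT2, AKT1 and IRS1 fell under STM2457, those of IRS2 and PIK3R1 were lower without passing the test, and MTOR was near its level without the inhibitor. In 7 of the 8 genes both treated libraries lay below all 3 untreated U87-R libraries, as they did in 49.6% of all tested genes (17.2% lay above). The test was limma on log2(summed score + 1) over 10615 genes in all 8 libraries, with Benjamini-Hochberg adjustment and a threshold of 0.05. Thus 5 of the 8 genes were called lower and 0 higher. Over all tested genes, 37.7% were called lower and 6.27% higher, 44% in either direction. The median change of the 8 genes was -0.80 and that of all tested genes was -0.68 (both log2). With each library scaled to its total score, or centred on its median, 3 of the 8 were called lower, namely PIK3CA, RICTOR and AKT2, and AKT1 and IRS1 were not. The split of calls over all genes, 4002 lower and 666 higher, became 2492 lower and 1702 higher under scaling and 2557 lower and 1631 higher under centring.

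**Figure D2:**
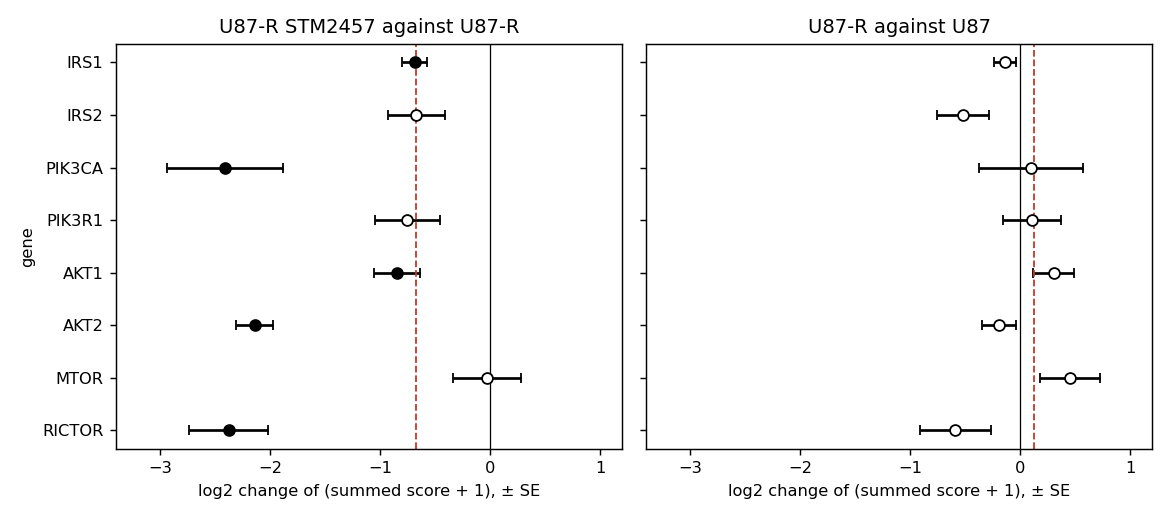
Log2 change of the summed score + 1 for each gene with its standard error, for U87-R STM2457 against U87-R (left) and U87-R against U87 (right); filled points passed limma's test at a Benjamini-Hochberg adjusted p of 0.05 over 10615 genes, and the dashed line is the median change of those genes (-0.68 and 0.12). Changes under STM2457 run from -2.41 for PIK3CA to -0.03 for MTOR, and no gene passed between the lines.

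IRS1, on chromosome 2 (chr2:226731312-226799820, minus strand), and IRS2, on chromosome 13 (chr13:109752695-109786583, minus strand), encode the adaptors that couple insulin receptors to PI3K. The summed scores of IRS1 were 1981 and 2019 in U87-R STM2457, against 3374, 3234 and 3061 in U87-R and 3248, 3672 and 3717 in U87. The treated libraries lay below all untreated ones, and the 2 untreated lines overlapped. The change was -0.69 ± 0.11 (SE), adjusted p = 0.00135 by limma with Benjamini-Hochberg adjustment. The summed scores of IRS2 were 1161 and 1309 in U87-R STM2457, against 2427, 1426 and 2194 in U87-R and 3268, 2113 and 3254 in U87. Its treated libraries were again the lowest, but replicate 2 of U87-R came close to them. The change of IRS2 was -0.67 ± 0.26 (SE), adjusted p = 0.0649 by limma with all libraries. Without replicate 2 of U87-R it was called lower, at -0.90 and adjusted p = 0.0115, and it was also called without replicate 2 of U87 (adjusted p = 0.041). Of all tested genes, 42.4% and 37.4% were called lower in these fits. IRS2 was called in 5 of the 18 alternative fits.

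In IRS1, 178 of the 202 bases lay in a single stretch that ran from 111 nt to 4952 nt past the annotated start, and this stretch carried 92.0% of the summed score in U87-R STM2457 and 86.0% in U87-R. Scores within the stretch did not move together. At position 226795244, 4576 nt past the start and with the highest mean of the gene over the libraries, the scores were 126 and 128 in U87-R STM2457, against 119.8, 133 and 128 in U87-R and 130.3, 117 and 128 in U87. The groups overlapped there. At position 226795191, 4629 nt past the start, the base was not listed in either treated library, and it had 115, 133 and 92.8 in U87-R and 108, 127 and 108 in U87 (limma adjusted p = 6.87e-06, U87-R STM2457 against U87-R). At position 226795179, just beyond it, the scores were 132 and 131 in U87-R STM2457, against 104, 47.0 and 104 in U87-R and 93.5, 94.7 and 88.6 in U87, and the treated libraries were the highest of the 8. Thus a base with scores close to the highest of the gene was absent under STM2457 while listed bases on either side of it kept theirs. The next in order of mean score, positions 226795933, 226795432 and 226796847, had changes of 0.07, 0.08 and -0.04 (log2), with adjusted p of 0.655, 0.655 and 0.891 by limma.

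Of 119 tested bases of IRS1, 32 were lower under STM2457 and 2 were higher by the per-base limma fit. Over all 188742 tested bases of the series, 16.9% were called lower and 6.65% higher, 23.5% in either direction. These shares are also the background for the per-base counts of the other genes below. A base entered this fit when 2 or more libraries of 1 group listed it, so a base listed in 1 group alone had to differ. Of the 82 bases called lower in the 8 genes, 41 were listed in no treated library, and of the 10 called higher, 3 were listed in no untreated library. In the second main stretch of IRS1, 4520 nt to 4948 nt from the 3′ end, the summed scores were 157 and 165 in U87-R STM2457, against 424, 483 and 446 in U87-R and 407, 473 and 478 in U87, and treated and untreated U87-R libraries did not overlap. Within it, position 226736085 had 53.6 and 76.0 in U87-R STM2457, against 101, 117 and 108 in U87-R and 87.5, 105 and 94.7 in U87, a change of -0.75 ± 0.16 (SE), adjusted p = 0.0132, and position 226736080, 5 nt from it, had 26.7 and 29.0 in U87-R STM2457, against 84.2, 116 and 91.6 in U87-R and 78.5, 63.8 and 111 in U87, a change of -1.76 ± 0.24 (SE), adjusted p = 0.00167. Both bases were lower in each treated library than in every untreated one. The bases called higher were position 226798226, with 35.2 and 24.9 in U87-R STM2457 and no listing in any other library, which entered the fit through the treated libraries alone, and position 226798996, with 10.5 and 20.0 in U87-R STM2457, against 0, 0 and 0 in U87-R and 0.662, 0 and 2.62 in U87 (adjusted p = 0.00773).

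IRS2 showed the same mixture. The highest mean of the gene was at position 109756154, 3459 nt from the 3′ end, with 128 and 140.3 in U87-R STM2457, against 96.7, 111 and 96.8 in U87-R and 117, 88.9 and 97.7 in U87. Its neighbour at position 109756163 had 128 and 142 in U87-R STM2457, against 97.3, 84.5 and 97.2 in U87-R and 117, 89.9 and 98.6 in U87. The treated libraries exceeded every untreated library at both, and the second passed the test at 0.54 ± 0.13 (SE), adjusted p = 0.0236, while the first did not, at 0.40 ± 0.13 (SE), adjusted p = 0.0666. A pair of bases 2684 nt and 2713 nt past the start was likewise higher under STM2457. Position 109783870 had 107 and 123 in U87-R STM2457, against 81.6, 72.7 and 82.3 in U87-R and 85.4, 87.3 and 88.4 in U87, a change of 0.54 ± 0.11 (SE), adjusted p = 0.00887. Position 109783899 had 114 and 131 in U87-R STM2457, against 86.4, 60.5 and 88.0 in U87-R and 94.0, 88.1 and 91.3 in U87, a change of 0.65 ± 0.17 (SE), adjusted p = 0.0297. No untreated library reached the treated ones at either base.

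Other bases of IRS2 fell. At position 109784357, 2226 nt past the start, no treated library listed the base, which had 55.4, 14.1 and 32.8 in U87-R and 87.6, 65.1 and 98.5 in U87 (limma adjusted p = 0.000764). Position 109782382 had 32.9 and 40.2 in U87-R STM2457, against 82.9, 93.5 and 91.3 in U87-R and 109, 90.3 and 101 in U87, a change of -1.27 ± 0.14 (SE), adjusted p = 0.000653, and position 109782393 had 27.5 and 29.9 in U87-R STM2457, against 82.8, 88.5 and 91.8 in U87-R and 109.9, 89.9 and 102 in U87, a change of -1.58 ± 0.13 (SE), adjusted p = 0.000175. At these 3 bases the treated libraries were all below the untreated ones. Position 109756186, the sixth by mean score, had 51.5 and 49.4 in U87-R STM2457, against 94.4, 42.2 and 95.2 in U87-R and 114, 88.9 and 97.4 in U87 and did not pass (adjusted p = 0.314). In total 20 of 89 tested bases of IRS2 were lower and 4 higher, and the fourth of these, position 109786579, lies 4 nt past the start. The plot of mean scores along both genes shows tall bases that persisted beside others that were gone.

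**Figure D3:**
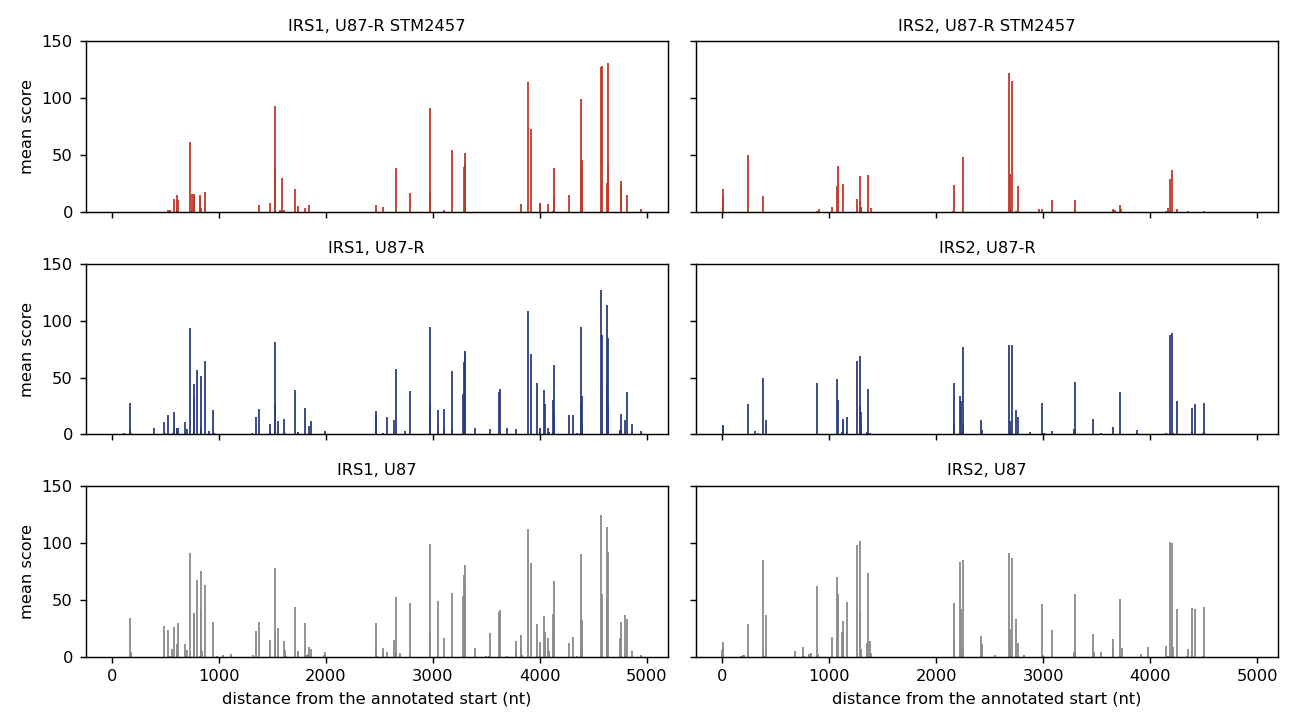
Mean score of each called base within 5000 nt past the annotated start of IRS1 (left) and IRS2 (right), in U87-R STM2457 (n = 2), U87-R (n = 3) and U87 (n = 3) from top to bottom; the x axis is the distance from the start in nt, and an unlisted base counts as 0. IRS1 kept its tallest base at 4576 nt and lost the one at 4629 nt under STM2457, and IRS2 rose at 2684 nt and 2713 nt.

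PIK3CA, on chromosome 3 (chr3:179148126-179240093, plus strand), encodes the catalytic subunit p110alpha, and PIK3R1, on chromosome 5 (chr5:68215756-68301821, plus strand), the regulatory subunit p85alpha. The summed scores of PIK3CA were 23.4 and 75.2 in U87-R STM2457, against 359.6, 140.4 and 235 in U87-R and 177, 205 and 265 in U87. The treated libraries were the lowest, at a mean of 49.3 ± 36.6 (SD, n = 2) against 245 ± 110.0 in U87-R (SD, n = 3), and they were unequal. The change was -2.41 ± 0.53 (SE), adjusted p = 0.0061, by limma with Benjamini-Hochberg adjustment. It passed with all 8 libraries and was lost without replicate 1 of U87-R STM2457, at -1.59 and adjusted p = 0.0725. Of the 33 bases, 19 lay in a stretch 5162 nt to 5898 nt from the 3′ end that carried 83.1% of the score in U87-R. At the highest base of the gene, position 179234360, the scores were 0 and 22.0 in U87-R STM2457, against 75.5, 37.1 and 69.6 in U87-R and 26.7, 41.5 and 42.5 in U87. At position 179234420 they were 0 and 3.96 in U87-R STM2457, against 57.8, 27.0 and 36.8 in U87-R and 35.3, 44.8 and 47.5 in U87, and at position 179234230 0.114 and 0 in U87-R STM2457, against 16.8, 18.5 and 8.74 in U87-R and 23.3, 8.91 and 5.92 in U87. Treated libraries stayed below all untreated ones at each of them. Positions 179234420 and 179234230 passed the per-base limma test, at adjusted p of 0.00355 and 0.00808, and the highest base did not (0.0583).

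The summed scores of PIK3R1 were 256 and 281 in U87-R STM2457, against 594, 369.6 and 423 in U87-R and 283, 499 and 526 in U87. The treated libraries were below every untreated U87-R library but close to replicate 1 of U87. Its change of -0.75 ± 0.30 (SE), adjusted p = 0.0699, by limma, did not pass with all libraries. It passed without replicate 2 of U87-R (adjusted p = 0.0477) and without replicate 1 of U87 (adjusted p = 0.0259). Of all tested genes, 42.4% and 37% were called lower in these fits. PIK3R1 was called in 4 of the 18 alternative fits. The bases lay in a stretch 10581 nt to 11142 nt past the nearest of 4 annotated starts, one 3531 nt to 4410 nt from the 3′ end, and 6 bases by the first start. The highest base, position 68226362, had 45.6 and 55.4 in U87-R STM2457, against 58.7, 68.8 and 63.8 in U87-R and 75.5, 54.9 and 81.6 in U87, a change of -0.33 ± 0.20 (SE), adjusted p = 0.273. At position 68226743, in the same stretch, no treated library listed the base, against 40.2, 31.2 and 23.6 in U87-R (adjusted p = 0.000655). Between them, position 68226625 had 11.4 and 13.0 in U87-R STM2457, against 55.2, 22.3 and 23.1 in U87-R and 9.39, 46.1 and 34.1 in U87 and did not pass (adjusted p = 0.241). Of 33 tested bases 2 were lower and 1 was higher; the other lower base, position 68298072, had 0 and 10.0 in U87-R STM2457, against 68.0, 26.7 and 23.9 in U87-R and 28.6, 29.3 and 61.3 in U87 (adjusted p = 0.0423).

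AKT1, on chromosome 14 (chr14:104769349-104795748, minus strand), and AKT2, on chromosome 19 (chr19:40230317-40285345, minus strand), encode related kinases that carry the signal from PI3K. AKT2 fell under STM2457. Its summed scores were 143 and 145 in U87-R STM2457, against 762, 575 and 594 in U87-R and 676, 712 and 813 in U87, and the treated libraries were far below every untreated one. The change was -2.14 ± 0.17 (SE), adjusted p = 7.08e-05, by limma, and it was called in all 18 alternative fits. A single stretch of 1029 nt, 2456 nt to 3484 nt from the 3′ end, carried 94.6% of the score of AKT2 in U87-R. It had 121 and 102 in U87-R STM2457, against 727, 531 and 569.8 in U87-R and 646, 696 and 776 in U87. The highest base, position 40232958, had 11.5 and 16.7 in U87-R STM2457, against 90.1, 75.7 and 92.8 in U87-R and 77.1, 84.2 and 86.2 in U87, a change of -2.54 ± 0.19 (SE), adjusted p = 0.000123, and position 40232977, 19 nt from it, had 0.337 and 0.21 in U87-R STM2457, against 62.1, 47.0 and 33.2 in U87-R and 51.9, 84.2 and 41.8 in U87, a change of -5.21 ± 0.43 (SE), adjusted p = 0.000169. The second highest, position 40232864, kept more of its score, with 36.9 and 21.1 in U87-R STM2457, against 70.1, 60.1 and 69.3 in U87-R and 66.4, 65.1 and 79.8 in U87 and a change of -1.22 ± 0.24 (SE), adjusted p = 0.00907. Of 36 tested bases of AKT2, 12 were lower and 0 higher, all 12 in this stretch.

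AKT1 divided along its length. Its summed scores over the whole gene were 265 and 267 in U87-R STM2457, against 579, 359 and 532 in U87-R and 379.5, 382 and 407 in U87, with the treated libraries lowest. The change of -0.85 ± 0.21 (SE), adjusted p = 0.0109, by limma, was not called without either treated library (-0.84, adjusted p = 0.0722, and -0.85, adjusted p = 0.066), at about the same size. Farther than 50 nt from an annotated start, the summed scores were 45.9 and 50.8 in U87-R STM2457, against 421, 201 and 371 in U87-R and 298, 259.5 and 263 in U87. Within 50 nt of a start they were 219.6 and 216 in U87-R STM2457, against 158, 158 and 161 in U87-R and 81.1, 123 and 144 in U87. The treated libraries were thus the lowest of the 8 in the body of the gene and the highest of the 8 in the sum within 50 nt of its 2 annotated starts. The 2 starts differed. A stretch of 6 bases, some farther than 50 nt away, began 26 nt past the start inside the gene. It had no listed base in either treated library, against 20.6, 0 and 28.0 in U87-R and 2.37, 7.52 and 15.4 in U87. This difference was not tested, and replicate 2 of U87-R had no listed base there either. Bases within 50 nt of a start held 82.7 and 81.0 percent of the score in U87-R STM2457, against 27.3, 43.9 and 30.2 percent in U87-R and 21.4, 32.2 and 35.3 percent in U87.

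In the body of AKT1, a stretch of 21 bases 3676 nt to 3995 nt from the 3′ end had no listed base in either treated library, with 174, 79.6 and 116 in U87-R and 143, 66.8 and 109 in U87. Closer to the 3′ end, position 104770055 was not listed under STM2457 and had 59.8, 48.2 and 52.9 in U87-R and 48.1, 54.8 and 39.6 in U87 (limma adjusted p = 3.74e-05). The same held at position 104773058, with 45.7, 35.2 and 40.4 in U87-R and 42.6, 26.0 and 26.8 in U87 (adjusted p = 0.000121). Positions 104770773 and 104770787 went the other way. They were listed in both treated libraries, at 13.0 and 16.1 and at 5.05 and 12.7, and in no untreated library. Of 36 tested bases of AKT1, 7 were lower and 3 higher.

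MTOR, on chromosome 1 (chr1:11106535-11262551, minus strand), encodes the kinase shared by both mTOR complexes, and RICTOR, on chromosome 5 (chr5:38937920-39074399, minus strand), the scaffold of one of them. The summed scores of MTOR were 249 and 195 in U87-R STM2457, against 226, 188 and 268 in U87-R and 111, 204 and 195 in U87. All 3 groups overlapped, and the change under STM2457 was -0.03 ± 0.31 (SE), adjusted p = 0.946, by limma. Within this sum, parts of the gene lay in opposite directions. Neither the sum near the start (adjusted p = 0.253 by limma) nor the sum without it was called. In the stretch of 36 bases 167 nt to 909 nt from the 3′ end, the summed scores were 31.0 and 38.0 in U87-R STM2457, against 180.1, 123 and 213 in U87-R and 111, 204 and 195 in U87. Every treated library lay below every untreated one there, and the sum of this stretch was not tested. Position 11107043, the highest of that stretch by mean score, was not listed under STM2457 and had 35.0, 18.5 and 23.7 in U87-R and 37.7, 35.6 and 23.0 in U87 (adjusted p = 0.000462). Within 50 nt of the start, the sums were 128 and 100.5 in U87-R STM2457 and 45.8, 43.9 and 55.3 in U87-R, and U87 had no called base. Position 11134362, far from either end, had 49.6 and 33.3 in U87-R STM2457, against 0, 20.4 and 0 in U87-R and no listing in U87 (adjusted p = 0.0857, U87-R STM2457 against U87-R). Also far from either end, positions 11133103 to 11133202 summed to 40.1 and 3.72 in U87-R STM2457, and position 11128058 had 0 and 19.4. No untreated library listed a base at these places, and their sums were not tested.

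RICTOR had no called base within 50 nt of its start in any library. Its summed scores were 20.4 and 24.4 in U87-R STM2457, against 154, 96.8 and 115 in U87-R and 153, 160.4 and 243 in U87, and the treated libraries were far below all others. The change was -2.38 ± 0.36 (SE), adjusted p = 0.000952, by limma, and it was called in all 18 alternative fits. A stretch 12078 nt to 12697 nt from the 3′ end carried most of the score, with 19.0 and 21.2 in U87-R STM2457, against 146, 95.5 and 114 in U87-R and 124, 129 and 215 in U87. Its highest base, position 38950103, kept 18.8 and 15.2 in U87-R STM2457, against 26.2, 16.5 and 25.0 in U87-R and 13.9, 33.0 and 73.9 in U87. It overlapped between the groups (adjusted p = 0.704). Position 38950303 was not listed under STM2457 and had 37.4, 30.6 and 24.3 in U87-R and 10.3, 29.4 and 35.4 in U87 (adjusted p = 0.000951). Of 13 tested bases 3 were lower and 0 higher.

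In all, 6 of the 8 genes held called bases at annotated starts. The sequences around some of these bases are shown because they place the called base in relation to the start and show the letter it falls on. Each runs 5′ to 3′ on the strand of the gene, with the called base in capitals, and is taken from RefSeq promoter sequences on GRCh38.p14. The bases shown were not chosen by score alone. In AKT1, a G at position 104795704 (mean score 28.3) and a C at position 104795712 (20.2) are not shown. Both scored above the A shown at position 104795739 (12.0).

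AKT1, base 38 from the start, position 104795711: cggctggcccAgcgcacgcag

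AKT1, base 10 from the start, position 104795739: cggcggcggcAggaccgagcg

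AKT2, base 9 from the start, position 40285337: gcgccgtgctAgccgttgggc

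MTOR, base 12 from the start, position 11262540: ctcccggcttAgaggacagcg

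MTOR, base 11 from the start, position 11262541: gctcccggctTagaggacagc

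IRS2, base 4 from the start, position 109786580: gcgatgtgttActcactgtgc

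PIK3R1, base 7 from the start, position 68215762: aggagtcgccAgcagctggag

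PIK3CA, base 1 from the start, position 179148357: agaaagcggcAgttccggtgc

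The PIK3CA base is counted from the later of its 2 annotated starts, inside a span that begins at position 179148126. Of the 34 member bases called within the first 50 bases of an annotated start, 14 fell on A, 10 on C, 6 on G and 4 on T. Over all genes 48.6% of called bases in such windows fell on A, where 20.5% of the letters are A. After the 14 called A of these genes came G in 10 and C in 4. Over all genes 48.1% of called A in these windows were followed by G and 16.8% by C, against 39.4% and 21.3% of all A there. These are counts of letters and do not say which mark was bound.

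At the AKT1 base shown at position 104795711, the scores were 72.2 and 66.6 in U87-R STM2457, against 34.4, 38.7 and 42.8 in U87-R and 34.3, 31.7 and 36.9 in U87. The treated libraries were the highest of the 8, and the change was 0.84 ± 0.18 (SE), adjusted p = 0.0135, by limma. At other AKT1 bases by this start the treated libraries were unequal. They had 1.74 and 50.6 at position 104795724, and 58.2 and 21.6 at position 104795704, against 34.3, 32.0 and 33.1 in U87-R there. They were closer at position 104795712, with 23.8 and 20.3. At the MTOR base at position 11262540 the scores were 69.5 and 49.6 in U87-R STM2457, against 22.9, 22.3 and 28.0 in U87-R, and the base was not listed in U87. Treated and untreated U87-R libraries did not overlap, but the change of 1.24 ± 0.49 (SE), adjusted p = 0.118, did not pass. Of 20 tested member bases within 50 nt of a start, 0 were lower under STM2457 and 2 were higher, those at position 104795711 of AKT1 and position 109786579 of IRS2. The IRS2 base had 2.94 and 2.49 in U87-R STM2457, against 0, 0 and 1.12 in U87-R and no listing in U87. Its scores were low, and it entered the fit through the treated libraries alone. Over all genes 1.09% of tested bases this close to a start were called lower and 19.7% higher, and of those farther away 20.2% were lower and 4.36% higher.

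Summed within 50 nt of a start, 0 of 6 tested members were called under STM2457, in a fit chosen after these values had been seen. Over 5216 genes with such a sum, 0.844% were called lower and 22.5% higher, and the median change was 1.07 (log2). The difference of AKT1 was 0.45 ± 0.23 (SE), adjusted p = 0.184, and that of MTOR 1.22 ± 0.74 (SE), adjusted p = 0.253. AKT1 was called higher with scaling to the total score (1.05, adjusted p = 0.00501), where 49.3% of all such genes were, and without replicate 1 of U87 (adjusted p = 0.0334). MTOR was called higher with a pseudocount of 10 (adjusted p = 0.0415), where 31% of all such genes were. Relative to the rest of the gene, the score at the start was called higher in 4 of the 6. AKT1 changed by 3.14 ± 0.48 (SE), adjusted p = 0.00251, AKT2 by 2.91 ± 0.76 (SE), adjusted p = 0.018, and MTOR by 1.94 ± 0.44 (SE), adjusted p = 0.0103 (log2 ratio of start to rest, limma over 4487 genes). The start of PIK3CA was listed at 0 and 27.4 in U87-R STM2457 and at 0 in all 3 U87-R libraries, so its ratio follows the rest of the gene in the first treated library and is given no size. This ratio was called higher in 55% and lower in 2.27% of those genes and its median change was 2.70, so such a call was made for most genes, with AKT1 and AKT2 above the median and MTOR below it. The ratio of AKT1 passed in all 11 alternative fits. That of AKT2 was not called without replicate 1 or 2 of U87-R STM2457 (adjusted p = 0.0636 and 0.0962), nor was that of MTOR (0.0564 and 0.0547).

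**Figure D4:**
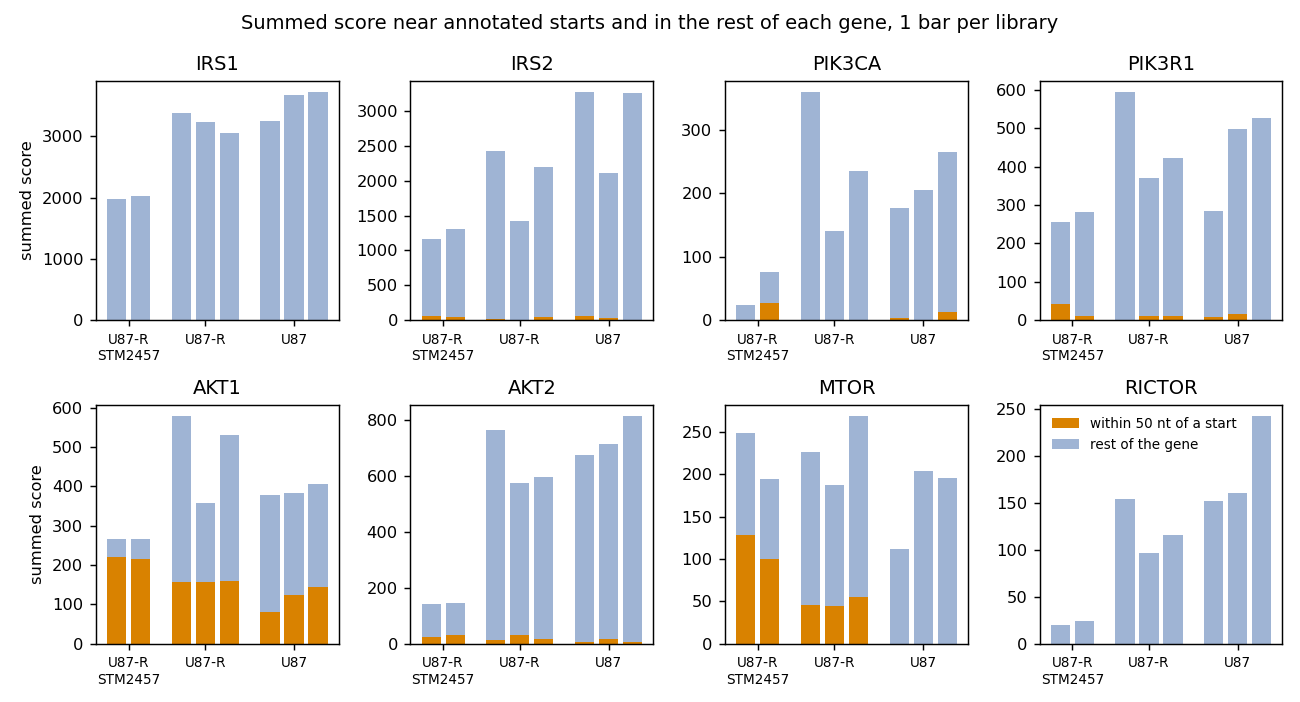
Summed score within 50 nt of an annotated start (orange) and in the rest of the gene (blue), stacked, with 1 bar per library of U87-R STM2457, U87-R and U87 and a separate y axis from 0 for each gene. In AKT1 the orange part is 216 to 219.6 under STM2457, against 158 to 161 in U87-R, while the blue part is lower than in every untreated library; in MTOR the orange part is absent in U87.

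To describe loss and persistence at firmly listed bases, the member bases scoring 10 or more in every U87-R library were followed into the treated libraries. There were 114 of them. In U87-R STM2457, 25 (21.9%) were listed in neither library and 56 (49.1%) kept at least 10 in both. Over the whole series 26.6% were absent and 46.5% kept. Farther than 50 nt from a start the members had 23.1% absent and 47.2% kept, against 31.3% and 38.3% of all bases given to a gene, a difference that was not tested. AKT1 had 5 of 9 absent and 3 kept, AKT2 3 of 9 absent and 2 kept, IRS1 10 of 49 absent and 26 kept, and IRS2 3 of 30 absent and 17 kept. PIK3R1 had 1 of 8 absent and 5 kept, MTOR 2 of 4 absent and 2 kept, RICTOR 1 of 2 absent and 1 kept, and PIK3CA had none of 3 in either class. Within 50 nt of a start 0 of 6 member bases were absent and 5 were kept, where 1.04% of all such bases were absent and 92.5% kept. In the other direction, 54 of the 714 member bases (7.56%, against 11.0% of all called bases) were called in U87-R STM2457 alone. Over all tested member bases, 82 of 360 (22.8%) were lower under STM2457 and 10 (2.78%) higher, against 16.9% and 6.65% of all tested bases. The median change of the member bases was -1.28 (log2) against -0.998 over all tested bases.

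**Figure D5:**
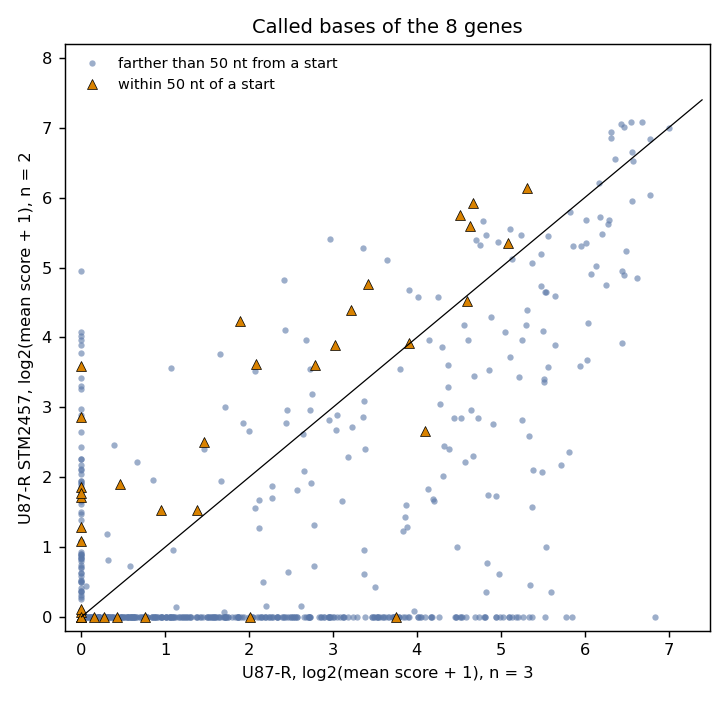
Mean score + 1 of the 714 called bases of the 8 genes on log2 axes, U87-R STM2457 (y, n = 2) against U87-R (x, n = 3), with bases within 50 nt of a start as orange triangles and the line of equality drawn. Points on the x axis are bases absent under STM2457, such as 25 of the 114 firmly listed ones, and points on the y axis are bases listed under STM2457 and not in U87-R.

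The authors' lists of reproducible sites held 31 sites of these genes for U87-R STM2457, 92 for U87-R and 98 for U87. Of the sites in U87-R STM2457, 29 (93.5%) were also in the U87-R list, which is 31.5% of the U87-R list. All 15 sites of IRS1 and all 10 of IRS2 listed under STM2457 were in the U87-R list, and for PIK3CA and RICTOR no site was listed under STM2457, against 6 and 3 in U87-R. The authors' reproducible peaks, which tile the bound stretches, numbered 129, 233 and 276 in the same order of groups. Of the 233 U87-R peaks 160 (68.7%) overlapped a peak of U87-R STM2457 by at least 1 base, among them all 12 of PIK3CA but 1 of 16 of AKT2. These lists join the libraries of a group and have no replicate error. The U87-R STM2457 lists join fewer libraries than the U87-R lists, so the numbers of entries are not directly comparable. Shares over the whole series are not given for these lists. Whether these genes differ from others in them was not tested.

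The comparison of U87-R with U87 asks what sets the resistant line apart from its parent. No member was called between the lines in its summed score. By limma without scaling, 0 of the 8 genes were called, and none had an unadjusted p under 0.05, which 12.6% of all tested genes had. Over all tested genes 1.26% were called, 0.367% lower and 0.895% higher. The median change of the 8 was -0.02 and that of all genes 0.12 (both log2). RICTOR was lowest at -0.59 ± 0.32 (SE), adjusted p = 0.504, followed by IRS2 at -0.52 ± 0.23 (SE), adjusted p = 0.403, and MTOR was highest at 0.45 ± 0.28 (SE), adjusted p = 0.568. The libraries of the lines overlapped for each of the 8 genes, as the values above show; over all tested genes 5.21% had every U87-R library below U87 and 11% had every one above. A p that misses the threshold does not show that the lines were alike. With 3 libraries per line the standard errors ranged from 0.10 for IRS1 to 0.47 for PIK3CA (log2). The share of unadjusted p under 0.05 depended on scaling. With each library scaled to its total score, 50% of the 8 genes had one by limma, against 14.6% of all tested genes. With centring on the median, 37.5% had one, against 14.2%. In both fits 0 of the 8 were called.

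At the start of MTOR, called bases were listed in U87-R and not in U87. Summed within 50 nt of the start, the scores were 128 and 100.5 in U87-R STM2457 and 45.8, 43.9 and 55.3 in U87-R, and no base there was listed in any U87 library. In the rest of the gene the sums overlapped, at 180.1, 144 and 213 in U87-R and 111, 204 and 195 in U87. The start was singled out after these values had been seen and is given as a description. Base by base, positions 11262540 and 11262541 did not pass over all tested bases, at adjusted p of 0.0792 and 0.0847.

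No single member base passed between the lines in the fit over all tested bases. By limma, 0 of 360 were called, and 0.00053% of all tested bases were. With the fit limited to bases called in every library of a group, 2.79% of 251 member bases passed, against 2.16% of all such bases. An unadjusted p under 0.05 was found for 39 of the 360, and for 11% of all tested bases. Without replicate 2 of U87-R, 9 of the 360 member bases passed, 8 higher and 1 lower, where 2.11% of all tested bases did. They included both MTOR bases (adjusted p = 0.0364 each) and RICTOR position 38941798 (adjusted p = 0.0385). That RICTOR base was listed at 15.2, 10.5 and 17.2 in U87 and in no library of U87-R or U87-R STM2457. It entered the fit through U87 alone, and the MTOR bases, unlisted in U87, could not enter through U87. Their passes add nothing to these listings. The RICTOR base belongs to the stretch 3853 nt to 4339 nt from the 3′ end. There the summed scores were 8.67, 1.34 and 1.87 in U87-R, against 28.1, 31.4 and 28.1 in U87. The lines did not overlap there, and the stretch was singled out after its values had been seen. In IRS1, position 226795177 had 23.4, 25.5 and 26.1 in U87-R and no listing in U87 (adjusted p = 0.112 over all tested bases and 0.0489 without replicate 2 of U87-R). This base, too, could not enter the fit through U87. Bases called in every library of U87-R and in none of U87 numbered 4 of 189 in the members (2.12%, against 2.97% in the whole series). In the opposite pattern there were 5 of 193 (2.59%, against 2.65%).

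The rest of the pathway was taken from a list of 60 further genes, of which 53 had a called base given to them and 46 were tested. Under STM2457, 18 of the 46 (39.1%) were called lower and 2 (4.35%) higher by limma, near the 37.7% and 6.27% of all tested genes. Their median change was -0.85, against -0.68 over all tested genes (log2). With scaling to the total score 10 fell and 7 rose (21.7% and 15.2%, against 23.5% and 16% of all tested genes). With centring 10 fell and 6 rose (21.7% and 13%, against 24.1% and 15.4%). The largest falls were of genes at several levels of the pathway. MLST8, a subunit of both mTOR complexes, had 0 and 5.55 in U87-R STM2457, against 202, 137 and 170.1 in U87-R and 131, 185 and 173 in U87, a change of -6.04 ± 0.72 (SE), adjusted p = 0.000333. GAB2, an adaptor that recruits PI3K, had 0.0886 and 2.34 in U87-R STM2457, against 36.8, 5.38 and 21.0 in U87-R and 23.3, 18.8 and 42.6 in U87, a change of -3.19 ± 0.96 (SE), adjusted p = 0.0249. PIK3R2, another regulatory subunit, had 63.3 and 11.0 in U87-R STM2457, against 281, 165 and 157 in U87-R and 189.8, 219.7 and 276 in U87, a change of -2.81 ± 0.62 (SE), adjusted p = 0.00654. PIK3CB, another catalytic subunit, had 4.31 and 14.0 in U87-R STM2457, against 92.0, 62.3 and 34.8 in U87-R and 55.5, 80.5 and 87.6 in U87, a change of -2.74 ± 0.65 (SE), adjusted p = 0.0092. In each of these genes the treated libraries lay below every untreated one.

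The genes called higher were RPS6 and BAD. RPS6, the ribosomal protein phosphorylated downstream of mTOR, was listed at 35.3 and 46.7 in U87-R STM2457 and at 0 in every untreated library. It entered the fit through the treated libraries alone, so its call is no more than this listing. It has processed copies in the genome, so its reads may be uncertain. BAD, a cell death factor that AKT phosphorylates, had 307 and 341 in U87-R STM2457, against 138, 154 and 164 in U87-R and 146, 165 and 193 in U87, a change of 1.09 ± 0.21 (SE), adjusted p = 0.00344. Between 65.3% and 68.1% of its score lay within 50 nt of a start in each group. Between the lines 0 of the 46 genes were called, against 1.26% of all tested genes. An unadjusted p under 0.05 was found for 3 (6.52%, against 12.6%). The lowest adjusted p was 0.0903 by limma, for FOXO1, a transcription factor restrained by AKT. FOXO1 had 3.26, 0 and 0.914 in U87-R and 27.1, 11.3 and 63.2 in U87, and is named after its values were seen.

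Across the 8 libraries the genes with the most similar pattern to each member, among those with a mean sum within a factor of 2, were found by Pearson's r of log2(summed score + 1). All share the same libraries and the general lowering under STM2457, so r is a description. IRS1 was closest to ADAMTS1 (r = 0.994) and NFIC (r = 0.992). IRS2 was closest to NEAT1 (r = 0.991) and TMEM273 (r = 0.978). PIK3CA was closest to MTPAP (r = 0.997) and SLC9A8 (r = 0.995). PIK3R1 was closest to ZFP64 (r = 0.983) and FIGNL1 (r = 0.972). AKT1 was closest to RBM4B (r = 0.993) and NCOA5 (r = 0.989). AKT2 was closest to FKBP10 (r = 0.997) and AGPAT4 (r = 0.996). MTOR was closest to CIZ1 (r = 0.948) and TPM1 (r = 0.921). RICTOR was closest to TNS1 (r = 0.998) and MAPK11 (r = 0.997). MTOR had the lowest of these values, over 3850 genes compared.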

How the data were processed

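Per the labels' protocols, a commercial provider made the m6A-eCLIP libraries: polyA RNA was selected and cut into fragments, and these were bound by an m6A antibody and crosslinked to it. UMI-tools, cutadapt, STAR and hg38 are named in the submitters' processing notes, with no version. The base caller is, like any scaling, not given in the sources used here. For each library the deposited file is 1 list with a score for each called base, which equals the smallest of 4 scores listed beside it. The authors also deposited, per group, lists of reproducible sites and peaks with a combined score and the fraction of libraries in which each passed. The 8 input libraries, which measure RNA abundance, were not analysed here. The labels list 16 samples in all.

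Gene spans came from RefSeq on GRCh38.p14, whose coordinates are those of hg38. Strands came from RefSeq promoters for 27303 genes, and for 2029 others from their called bases, where at least 5 lay in the span and at least 80% on 1 strand. Of 452349 bases, 395927 (87.5%) were given to 1 gene. Starts were the 5′ end of the span and the starts of the promoter table. Scores were summed per gene and library, and an unlisted base counted as 0. With its trend option, limma 3.58.1 (R 4.3.3) was fitted to log2(sum + 1) with 3 group means over 8 libraries, for 10615 genes whose sum reached 10 in 2 or more libraries, and likewise to log2(score + 1) for 188742 bases listed by 2 or more libraries of 1 group. p-values were adjusted by Benjamini and Hochberg over all features of a fit. No scaling between libraries was applied. Fold changes are on these log2 scales, which understate changes of low values. The fit was tested on simulated data. An exact permutation test of a single value cannot go below 0.1 in either comparison and was not used.

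All 8 genes are described. Bases are named from the 6 with the highest mean score per gene and those past the test, further pathway genes from the 4 largest changes per direction past the test, and exceptions are marked. The genes, lists and tests were chosen with earlier results of these data known.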

Additional observations from a re-analysis of the deposited data

How the results depend on the processing

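AKT2 and RICTOR kept their calls under STM2457 in all 18 alternative fits, PIK3CA in 17, IRS1 in 16 and AKT1 in 14. No member was called between the lines in any of them, and no member changed direction among called values. IRS2 and PIK3R1, not called with all libraries, were called lower in 5 and 4 of the 18 fits. Without bases within 50 nt of a start 7 members were lower, as were 54.4% of all tested genes, and MTOR was not called (lowest adjusted p over its fits 0.0897, by limma). For U87-R STM2457 against U87-R, counts over all genes moved to 2557 lower and 1631 higher with median centring, to 2492 and 1702 with scaling to total score, and to 289 higher with the number of called bases. The members moved to 3 lower under centring and under scaling. The further pathway genes moved to 10 lower and 6 higher under centring, to 10 and 7 under scaling, and to 1 higher by number of called bases. Member bases called higher moved to 18 under scaling.

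For U87-R against U87, genes over all moved to 74 lower with centring, 61 lower with scaling, 18 lower and 52 higher by number of called bases, and 60 lower and 191 higher without both replicate 2 libraries of the untreated lines. Over all bases, 6 were lower and 7 higher with a pseudocount of 10, 1327 and 1358 (3 and 4 in the members) among bases called in every library of a group, and 0 higher with scaling or without both replicate 2 libraries.

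Leaving out each library in turn gave, for U87-R STM2457 against U87-R, 2741 to 4496 genes lower and 275 to 692 higher over all, and 3 to 7 members lower; the fewest came without replicate 1 of U87-R STM2457. For U87-R against U87 it gave 14 to 48 genes lower and 40 to 144 higher, and over all bases 0 to 578 lower and 0 to 3399 higher, with 0 to 1 and 0 to 8 in the members. The highest of these counts over bases came without replicate 2 of U87-R. Where 1 treated library remained, it was assumed to vary like the other groups.

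Replicate numbers were not used as pairs in the main fit, because the labels do not say that they mark a shared culture or day. Same-numbered libraries of U87-R and U87 had correlations of 0.0974, 0.316 and 0.105 between their deviations. Differently numbered ones had -0.205 to 0.146. Same-numbered libraries with U87-R STM2457 were between -0.0223 and -0.0189. A replicate 2 effect shared by U87-R and U87 is not excluded. With the replicate block, U87-R against U87 gave 16 genes lower and 50 higher over all and 0 bases higher, and under STM2457 5 members and 32.5% of all tested genes were lower.

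The lists hold no coverage, so what depth limits cannot be given, and an unlisted base is not a measured 0. The treated libraries differ from the others in all bases called. Distances are from annotated starts and not from the starts used in these cells. With 2 treated libraries, values that rest on 1 of them are named above.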
